A study of Mus musculus with 6 samples.

Results

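Metallothioneins, the zinc-responsive transcription factor that controls them and 6 plasma membrane or vesicle metal transporters were followed in mouse astrocytes taken from brains with a tumour and from control brains. The 10 genes were chosen by name, as members of these families: Mt1, Mt2, Mt3, Mtf1, Slc30a1, Slc30a10, Slc39a1, Slc39a10, Slc39a12 and Slc39a14. All 10 were found among the 35127 genes of the deposited tables, and all 10 were among the 14359 genes with enough reads to be tested. The tumour group held 3 libraries of tumour-associated astrocytes, from brains bearing a small cell lung cancer (SCLC) allograft, that is, a graft of mouse tumour cells. The sham group held 3 libraries of astrocytes from brains given a sham injection. The labels give neither the mouse strain, age and genotype nor the tumour line or the way astrocytes were isolated, and do not say whether libraries came from separate animals. The p-values below therefore reflect the variation among these 6 libraries alone, part or all of which may be technical.

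Metallothioneins are short, cysteine-rich proteins that bind zinc and copper and buffer the free metal in the cell. When cytosolic zinc is high, the transcription factor MTF1 binds metal response elements in the promoters of Mt1, Mt2 and the zinc exporter gene Slc30a1 and raises their transcription. SLC30 proteins move zinc out of the cytosol, and SLC39 proteins move zinc into it. In brain, astrocytes express Mt1 and Mt2 strongly, while Mt3, first described as a growth inhibitory factor for neurons, is largely particular to the nervous system.

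Mt3, Mt2 and Mt1 lie in that order on the plus strand of chromosome 8 (mm10, with gene models of GENCODE M21 on the same assembly) and span 27721 bases. Mt3 runs from 94152607 to 94154146, Mt2 from 94172664 to 94173568 and Mt1 from 94179082 to 94180327, all protein-coding. Slc30a1 lies on the plus strand of chromosome 1 from 191906767 to 191913247. The 300-base RefSeq promoter windows (GRCm38.p6) of these 4 genes are shown because 3 of them are described as MTF1 targets and Mt3 is the neighbour of 2 of these. Capitals mark the core of the metal response element, searched as TGCACNC or TGCGCNC on both strands, where a match on the minus strand appears as its reverse complement. Each window begins 250 bases before the RefSeq start and ends 50 bases into the RefSeq transcript. This start can differ from the GENCODE start given above. The Mt2 window ends at 94172667, while the GENCODE model of Mt2 starts at 94172664.
Mt1, chr8:94178839-94179138, plus strand: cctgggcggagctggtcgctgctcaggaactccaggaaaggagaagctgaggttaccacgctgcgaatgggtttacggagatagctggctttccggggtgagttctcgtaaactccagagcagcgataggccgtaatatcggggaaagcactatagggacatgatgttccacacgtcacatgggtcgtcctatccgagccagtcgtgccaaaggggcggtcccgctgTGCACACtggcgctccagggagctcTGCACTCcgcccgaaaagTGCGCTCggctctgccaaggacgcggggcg
Mt2, chr8:94172368-94172667, plus strand: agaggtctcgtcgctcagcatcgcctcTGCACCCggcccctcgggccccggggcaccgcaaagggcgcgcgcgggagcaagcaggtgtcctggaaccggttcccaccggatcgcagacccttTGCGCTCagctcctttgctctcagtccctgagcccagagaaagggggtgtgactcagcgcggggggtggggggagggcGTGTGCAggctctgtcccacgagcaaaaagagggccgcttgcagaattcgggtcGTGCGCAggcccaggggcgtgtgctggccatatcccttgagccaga
Mt3, chr8:94152357-94152656, plus strand: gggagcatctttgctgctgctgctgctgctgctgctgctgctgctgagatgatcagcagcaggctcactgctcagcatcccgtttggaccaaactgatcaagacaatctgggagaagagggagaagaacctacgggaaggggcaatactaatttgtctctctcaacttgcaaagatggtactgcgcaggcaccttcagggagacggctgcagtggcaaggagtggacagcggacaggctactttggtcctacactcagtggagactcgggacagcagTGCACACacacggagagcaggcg
Slc30a1, chr1:191906531-191906830, plus strand: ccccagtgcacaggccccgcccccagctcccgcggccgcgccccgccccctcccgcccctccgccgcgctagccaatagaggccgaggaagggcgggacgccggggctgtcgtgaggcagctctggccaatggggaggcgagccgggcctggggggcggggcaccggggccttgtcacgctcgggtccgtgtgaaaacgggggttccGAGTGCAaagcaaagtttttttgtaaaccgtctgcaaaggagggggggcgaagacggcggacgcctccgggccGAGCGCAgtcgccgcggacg

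The Mt1 window held 3 matches, all on the plus strand, and the Mt2 window held 4, of which 2 were on each strand. The Slc30a1 window held 2 matches, both on the minus strand. Only 1 match was found in the Mt3 window, at base 278 counted from its 5′ end. At least 1 match occurs in 25.7% of all 32851 windows of this length, at least 2 in 7.11%, at least 3 in 1.97% and at least 4 in 0.52%. RefSeq windows were found for 9 of the 10 genes. The manganese exporter gene Slc30a10 had 3 matches, 2 of which overlap each other on opposite strands, and the windows of Mtf1, Slc39a1, Slc39a10 and Slc39a12 had 0. A match is a stretch of letters and was not tested for binding.

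The libraries held 24511972 to 25787303 matched reads in the tumour group and 22124093 to 23319032 in the sham group. The 3 tumour libraries nearly coincided, with root mean square log2 differences over tested genes of 0.322 to 0.352 among the 4 closest pairs, which also include sham 1 with sham 2. Sham 3 stood apart from sham 1 and 2 by 0.795 to 0.802, more than the 0.734 to 0.749 between tumour and sham libraries, so each result is given with sham 3 in view. All 9 astrocyte markers listed were above 3 reads in every library, with a summed level of 3136 to 3244 CPM (read counts scaled to a common depth by TMM library sizes) in tumour libraries and of 4592, 4602 and 2685 CPM in sham 1, 2 and 3. Of these 9, edgeR called 1 lower, 1 higher and 7 in neither direction, beside 10.4% lower and 10.5% higher over all tested genes. Gja1 was lower, at 542 ± 11.8 CPM in tumour and 1041 ± 289 CPM in sham libraries (SD, n = 3 each). Aldh1l1 was higher, at 345 ± 6.53 CPM in tumour and 247 ± 29.9 CPM in sham libraries (edgeR adjusted p = 0.0268 and 0.0215). The mitochondrial share of reads was 4.05% to 4.23% in tumour libraries and 6.66%, 6.2% and 4.2% in sham 1, 2 and 3. Of 6 neuronal markers 4 were above 3 reads in every library, with summed levels of 91.7 to 101 CPM in tumour and 87.8 to 149 CPM in sham libraries, mostly from Stmn2, while Rbfox3 had 0 reads throughout. Of the 4 tested, edgeR called 0 higher and 2 lower (10.5% and 10.4% of all tested genes). Tubb3 had 2.44 ± 0.219 CPM in tumour and 5.01 ± 0.936 CPM in sham libraries (edgeR adjusted p = 0.0172). Syn1 had 0.709 ± 0.280 CPM in tumour and 2.64 ± 0.622 CPM in sham libraries (edgeR adjusted p = 0.0175). Of 4 endothelial markers 2 were above 3 reads in every library, with sums of 579 to 583 CPM in tumour and 507 to 609 CPM in sham libraries, nearly all from Cdh5, while Cldn5 had 0 reads throughout. Of 6 microglial markers 3 were above 3 reads in every library, with sums of 88.4 to 89.0 CPM in tumour and 80.3 to 111 CPM in sham libraries, nearly all from Tmem119. Of 3 oligodendrocyte precursor markers, Pdgfra was called higher, at 258 ± 6.06 CPM in tumour and 167 ± 34.2 CPM in sham libraries (SD, n = 3 each; edgeR adjusted p = 0.0326), while Sox10 had at most 0.355 CPM in any library. Cspg4 was not called and its groups overlapped. It had 50.7, 51.9 and 53.6 CPM in tumour libraries and 48.7, 47.1 and 101 CPM in sham libraries (edgeR adjusted p = 0.468). The summed level of 4 pericyte and fibroblast markers was 1262 to 1267 CPM in tumour libraries, while sham 1 and 2 had 1338 and 1303 CPM and sham 3 had 1927 CPM. The 10 SCLC and neuroendocrine markers summed to 175 to 179 CPM in tumour libraries and 207 to 216 CPM in sham libraries, most of it from Nfib; the other 9 summed to 25.2 to 29.8 CPM in tumour and 38.6 to 41.9 CPM in sham libraries. Epcam, the epithelial cell adhesion gene, had 0.24 to 0.33 CPM in tumour libraries and 0 in sham libraries. The part of other cells and of the mitochondrial share in the results was not tested.

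Mt1 and Mt2 were among the most abundant transcripts of these astrocytes. Compared per length in TPM (a length-corrected share of all transcripts, the authors' deposited values summed over the transcripts of a gene), Mt1 stood at 11032, 10653 and 10610 TPM in tumour libraries 1 to 3 and at 8698, 8699 and 8934 TPM in sham libraries 1 to 3. It ranked between 7 and 9 of all genes in tumour libraries and between 8 and 11 in sham libraries. Mt2 reached 9189, 8532 and 8757 TPM in the tumour libraries, against 6150, 5682 and 8414 TPM in the sham libraries. Sham 3 thus lay next to the tumour libraries for Mt2 and next to the other sham libraries for Mt1. Mt3, at 1343, 1551 and 1493 TPM in tumour libraries and 1947, 1979 and 1172 TPM in sham libraries, was lower than the other metallothioneins in every library. Mt4, the epithelial metallothionein gene further upstream in the cluster, had 0 reads in the tumour libraries and at most 1 read in any sham library.

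The transporters spanned a wide range below the metallothioneins. Slc39a1 (ZIP1), a widely expressed zinc importer of the plasma membrane, averaged 157 ± 1.60 TPM in tumour libraries and 184 ± 15.5 TPM in sham libraries (SD, n = 3 each). Slc39a14 (ZIP14), which also carries manganese and iron, averaged 40.9 ± 4.50 TPM in the tumour group and 41.6 ± 9.29 TPM in the sham group. Slc39a12 (ZIP12), a zinc importer found mainly in brain, had 34.0 ± 0.436 TPM in the tumour group and 69.3 ± 43.8 TPM in the sham group. Slc39a10 (ZIP10) followed with 15.9 ± 0.509 TPM in tumour and 18.4 ± 0.617 TPM in sham libraries. Mtf1 and Slc30a1 (ZnT1) came next, and Slc30a10 (ZnT10) was last with 0.181 ± 0.0402 TPM in tumour and 0.0865 ± 0.0648 TPM in sham libraries. Neighbours by level whose ranges overlapped were Mtf1 and Slc30a1 in both groups and Slc39a12 and Slc39a14 in the sham group.

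**Figure D1:**
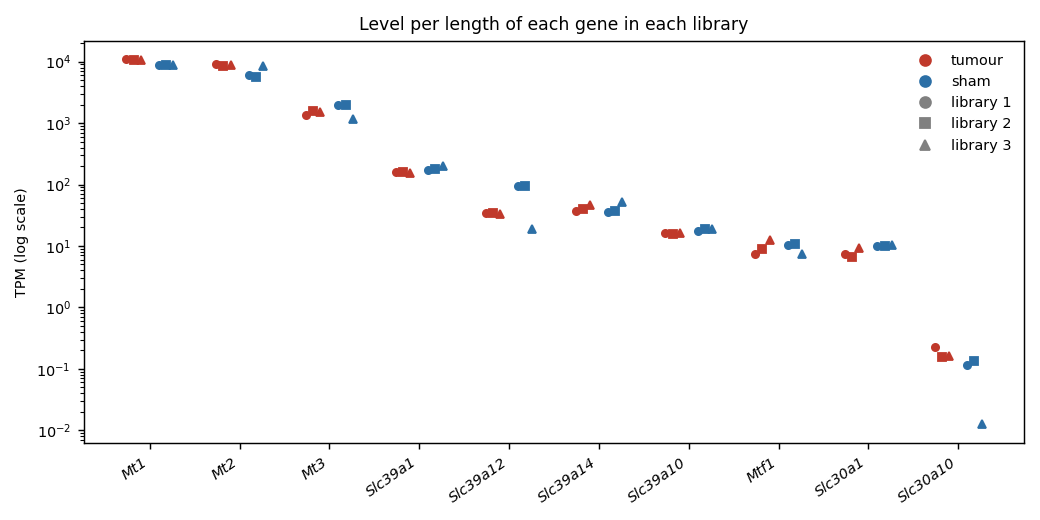
Level per length of each gene in each library, in TPM on a log scale, with tumour libraries in red left of sham libraries in blue and 1 marker shape per library number. Mt1 and Mt2 lie far above the transporters, and sham library 3 is the lowest point for Slc39a12 and Slc30a10.

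Together Mt1, Mt2 and Mt3 made up 2.16%, 2.07% and 2.09% of all TPM in the tumour libraries, against 1.68%, 1.64% and 1.85% in the sham libraries. The groups did not overlap (2.11% ± 0.0446 in tumour and 1.72% ± 0.114 in sham libraries, SD, n = 3 each; exact two-sided permutation p = 0.1, the smallest that 3 against 3 allows). In the makeup of this pool sham 3 lay apart from sham 1 and 2. Mt3 supplied 6.23% to 7.48% of it in tumour libraries, and 11.6%, 12.1% and 6.33% in sham 1, 2 and 3 (exact permutation p = 0.3). The ratio of Mt2 to Mt1 per length was 0.801 to 0.833 in tumour libraries, and 0.707, 0.653 and 0.942 in sham 1, 2 and 3 (exact permutation p = 0.6). Summed in CPM, without length correction, the metallothionein genes (Mt4 included) had 3975, 4115 and 4177 CPM in tumour libraries. The same sum was 3548, 3357 and 3695 CPM in sham libraries.

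On the CPM scale, used for testing, Mt1 had 2189, 2248 and 2262 CPM in tumour libraries and 1929, 1866 and 1918 CPM in sham libraries. The groups did not overlap and were each tight, but the difference was small. Its log2 fold change, tumour over sham, was 0.23 (SE 0.11, edgeR quasi-likelihood test, adjusted p = 0.181 over all tested genes), while DESeq2 gave 0.23 with an adjusted p of 0.00156. Mt2 had 1483, 1490 and 1545 CPM in tumour libraries and 1118, 1008 and 1487 CPM in sham libraries, so that sham 3 fell within the tumour range (0.32, SE 0.17, edgeR adjusted p = 0.215). For Mt3 the values were 303, 377 and 370 CPM in tumour libraries and 502, 484 and 291 CPM in sham libraries. Sham 3 was the lowest library of all, and its fold change on the log2 scale was -0.28 (SE 0.22, edgeR adjusted p = 0.405).

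Of the 10 genes, 1 was called lower and 0 higher in tumour libraries (edgeR, Benjamini-Hochberg adjusted p below 0.05); over all tested genes 10.4% were called lower and 10.5% higher. At an unadjusted p below 0.05, 3 of the 10 were lower and 0 higher, beside 18.7% and 17.7% of all tested genes. DESeq2 called 1 of the 10 higher and 2 lower (12.6% and 12.3% of the genes it tested), and limma-voom called 0 higher and 2 lower (11.5% and 10.3%). The median log2 fold change of the 10 was -0.22, beside -0.02 over all tested genes. In 5 of the 10 the groups did not overlap, with tumour libraries higher in 2 and lower in 3, which over all tested genes held for 22.2% and 21.9%. In these bulk samples fewer cells of a type and less RNA per cell cannot be told apart.

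**Figure D2:**
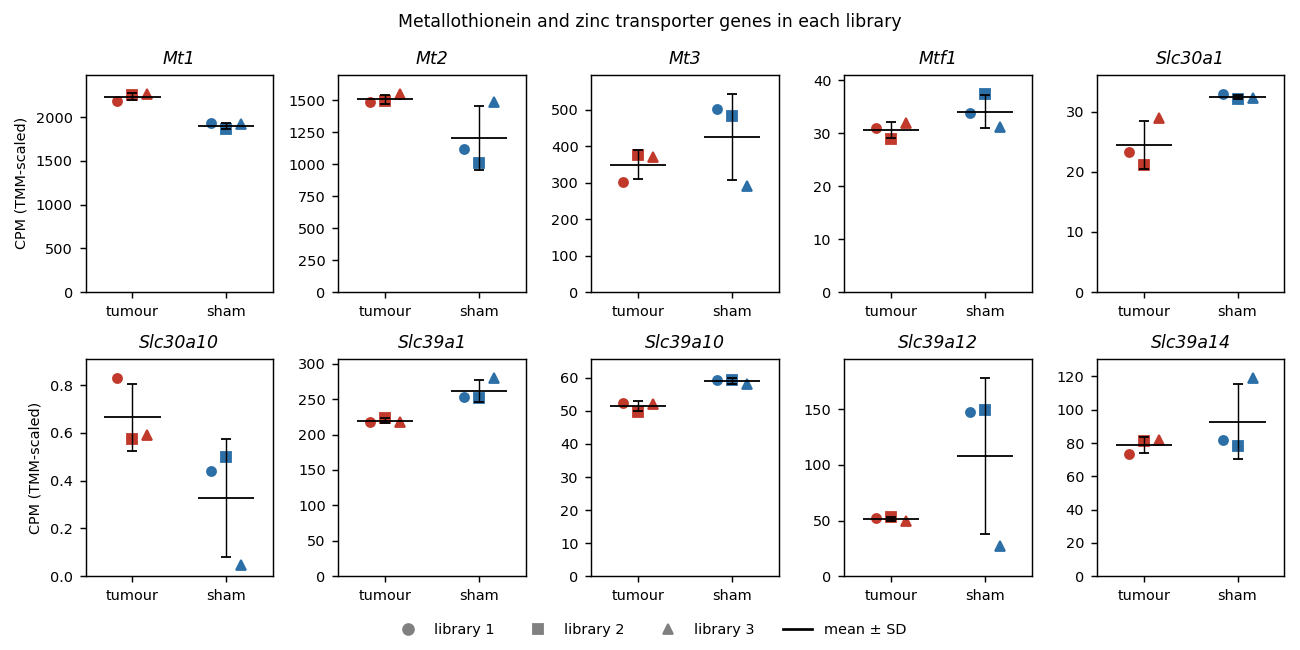
CPM of the 10 genes in each library, tumour libraries in red left of sham libraries in blue, with 1 marker shape per library number and black bars for the mean ± SD of 3 libraries. Tumour and sham values are apart for Mt1, Slc30a1, Slc30a10, Slc39a1 and Slc39a10, and sham library 3 lies far from sham 1 and 2 for Mt2, Mt3, Slc39a12 and Slc39a14.

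Mtf1 itself (chromosome 4, 124802104 to 124849800, plus strand) had overlapping groups. Its values were 31.1, 28.9 and 31.9 CPM in tumour libraries and 33.8, 37.4 and 31.2 CPM in sham libraries, a log2 difference of -0.16 (SE 0.09, edgeR adjusted p = 0.263). It was -0.03 (SE 0.23, edgeR adjusted p = 0.946) with transcript length offsets, -0.09 without sham 2, and a called -0.22 without sham 3 (edgeR adjusted p = 0.0105). Its level per length was 9.64 ± 2.46 TPM in tumour and 9.58 ± 1.83 TPM in sham libraries (SD, n = 3 each). Its estimated reads were not whole numbers in any library, and 721 bases of it overlap the protein-coding gene 1110065P20Rik on the opposite strand. A list of 8 genes described as MTF1 targets in mouse, all tested, included Mt1, Mt2, Slc30a1 and Slc39a10. MTF1 is described as raising Mt1, Mt2 and Slc30a1 but repressing Slc39a10, so the list has no common direction. Of the 8, edgeR called 2 higher and 1, Slc39a10, lower, beside 10.5% and 10.4% of all tested genes. Their median log2 fold change was 0.28. DESeq2 called 4 of them higher, with Mt1 and Ndrg1 added, and 1 lower, Slc30a1 (12.6% and 12.3% of the genes it tested). The 2 that edgeR called higher were Gclc and the selenoprotein gene Selenow. Gclc, which encodes the catalytic subunit of the first enzyme of glutathione synthesis, had 393 ± 11.7 CPM in tumour and 302 ± 5.28 CPM in sham libraries (SD, n = 3 each). Selenow had 236 ± 19.9 CPM in tumour and 166 ± 9.05 CPM in sham libraries. The call of Gclc was lost without any 1 library other than sham 3, and that of Selenow without tumour 2, tumour 3 or sham 2. Ndrg1, a stress-responsive gene, had 774, 752 and 767 CPM in tumour libraries and 517, 525 and 262 CPM in sham libraries, with the groups apart (edgeR adjusted p = 0.0727, DESeq2 adjusted p = 0.00877). Csrp1, which encodes a LIM domain protein, had overlapping groups, at 186 ± 4.59 CPM in tumour and 193 ± 21.5 CPM in sham libraries.

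Slc30a1, the plasma membrane zinc exporter that MTF1 raises along with Mt1 and Mt2, had the opposite order of groups to Mt1. It had 23.4, 21.1 and 28.9 CPM in tumour libraries and 32.9, 32.1 and 32.3 CPM in sham libraries. Every tumour library was below every sham library, and the 3 sham values lay close together, sham 3 included. The log2 fold change was -0.41 (SE 0.12, edgeR adjusted p = 0.0582), just short of the threshold. DESeq2 (adjusted p = 0.0379) and limma-voom (adjusted p = 0.0498) placed it past the threshold, as did edgeR without tumour 3, the highest tumour library (log2 fold change -0.54, adjusted p = 0.0356). It was also called without sham 3. The other 11 of 15 alternatives did not call Slc30a1. For edgeR the adjusted p was 0.19 and 0.171 without tumour 1 or 2, and 0.137 and 0.13 without sham 1 or 2. With the replicate block it was 0.0895.

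The manganese exporter gene Slc30a10 (chromosome 1, 185454848 to 185468762) was close to the limit of detection. It had 20, 14 and 15 reads in tumour libraries and 10, 12 and 1 reads in sham libraries. The edgeR adjusted p was 0.333, and the fitted log2 fold change of 1.00 (SE 0.67) rests in part on the single read of sham 3.

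Of the 4 importers among the 10 genes, Slc39a10 was the one called. It had 52.5, 49.8 and 52.0 CPM in tumour libraries and 59.5, 59.5 and 58.0 CPM in sham libraries, with the groups apart and sham 3 beside the other sham libraries. It lies on the minus strand of chromosome 1 from 46807544 to 46892852, and in mouse its transcription is known to be repressed by MTF1 when zinc is high. The log2 fold change was -0.20 (SE 0.06, edgeR adjusted p = 0.0494), a 1.15-fold difference. This call lay at the threshold: it was lost in 13 of 15 alternative analyses, with adjusted p-values such as 0.0502 with RLE size factors and 0.0657 in DESeq2, while the log2 fold change stayed between -0.24 and -0.18.

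Slc39a1 (chromosome 3, 90248172 to 90253612, plus strand) showed the same order of groups. It had 217, 224 and 218 CPM in tumour libraries and 253, 252 and 279 CPM in sham libraries, all tumour values being lower. The log2 fold change was -0.25 (SE 0.07, edgeR adjusted p = 0.0571). Its adjusted p was 0.016 in DESeq2, 0.04997 in limma-voom and 0.0324 in edgeR with upper-quartile factors. It was also called without sham 3. The other 11 of 15 alternatives did not call Slc39a1. For edgeR the adjusted p was 0.196, 0.172 and 0.202 without tumour 1, 2 or 3, and 0.105 and 0.104 without sham 1 or 2. With the replicate block it was 0.146.

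Slc39a12 (chromosome 2, 14388316 to 14494977, plus strand) had sham libraries far apart. Its values were 52.3, 53.0 and 49.7 CPM in tumour libraries, and 147, 149 and 27.1 CPM in sham libraries. The tumour libraries therefore lay below sham 1 and 2 but above sham 3, which held 18.3% of the mean of sham 1 and 2. The log2 fold change over all libraries was -1.06 (SE 0.57, edgeR adjusted p = 0.233). Without sham 3 it was -1.52 (edgeR adjusted p = 8.22e-26), in a fit that kept only the nearly coinciding sham 1 and 2 and called 57.7% of its tested genes. Of the 9 astrocyte markers, 8 were lower in sham 3 than the mean of sham 1 and 2, at 30.5% (the water channel gene Aqp4) to 64.7% (Aldoc) of it, while Aldh1l1 stood at 123%. Aqp4 had 223 to 235 CPM in tumour libraries and 535, 510 and 159 CPM in sham 1, 2 and 3. The part of astrocyte marker levels in this result was not tested.

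Slc39a14 (chromosome 14, 70303469 to 70351425, minus strand) had 73.5, 81.5 and 81.8 CPM in tumour libraries and 81.6, 77.9 and 119 CPM in sham libraries. Sham 3 was the highest library, and the other 5 lay close together. Its change on the log2 scale, -0.23 (SE 0.17, edgeR adjusted p = 0.362), became -0.02 without sham 3 and -0.06 with transcript length offsets.

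The genes differed in whether sham 3 lay with the other sham libraries. The mean of the tumour libraries stood at a log2 ratio of 0.24 to sham 1 and 2 and of 0.22 to sham 3 for Mt1. For Slc30a1 these ratios were -0.41 and -0.40, for Slc39a10 they were -0.21 and -0.17, and for Slc39a1 they were -0.20 and -0.35. By contrast the ratios had opposite signs for Slc39a12 (-1.52 and 0.93) and Mt3 (-0.49 and 0.27). For Mt2 the ratio was 0.50 to sham 1 and 2 and 0.02 to sham 3. Without sham 3 edgeR called 8 of the 10, 2 higher and 6 lower, where 29.1% and 28.6% of all tested genes were called.

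**Figure D3:**
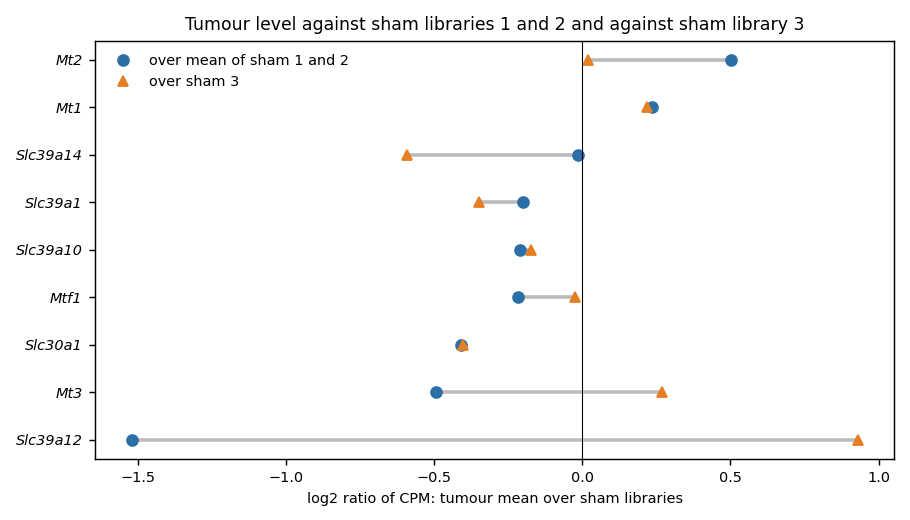
Log2 ratio of the tumour mean to the mean of sham libraries 1 and 2 (blue circles) and to sham library 3 (orange triangles) for 9 genes, from CPM; Slc30a10 is left out because sham 3 had 1 read. The symbols nearly meet for Mt1, Slc30a1 and Slc39a10 and lie on opposite sides of 0 for Mt3 and Slc39a12.

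Nearly all reads of each gene were assigned to 1 transcript, whose share was at least 92.47% in every library and gene. Per length the main transcript weighed less in Mtf1 and Slc39a14. Mtf1-201 made up 45.9% to 78.2% of Mtf1 TPM in tumour libraries and 57.29% to 78.94% in sham libraries. For Slc39a14-202 the share of TPM was 53.22% to 61.67% in tumour and 62.44% to 68.38% in sham libraries, and a short transcript of 479 bases added 5.23 to 16.8 TPM in tumour and 8.02 to 8.41 TPM in sham libraries from 21.5 to 73.1 reads in tumour and 31.8 to 33.5 reads in sham libraries. The 549-base Mt1-201 carried 98.56% to 98.7% of Mt1 reads in tumour libraries and 98.51% to 99.06% in sham libraries. The longer Mt1-202 (1085 bases) carried 1.14%, 1.09% and 1.08% in tumour libraries and 0.68%, 0.69% and 1.18% in sham libraries, where sham 3 again lay beside the tumour libraries. Mt3-201 held 94.9% to 96.16% of Mt3 reads in tumour and 95.65% to 96.01% in sham libraries. Of the 13 annotated transcripts of Slc39a14, Slc39a14-202 held 94.28% to 95.25% in tumour and 92.47% to 94.48% in sham libraries. The reads of 8 of the 10 genes summed to whole numbers (within 0.05 reads) in all 6 libraries, as sums of reads that Salmon did not divide with another gene are. The exceptions were Mtf1 and, in 1 library, Slc39a1. Reads of the antisense gene Gm45774, which overlaps Mt2 over 749 bases and was not analysed here, cannot be told apart from Mt2 reads without strand. Likewise 1700034H15Rik overlaps Slc30a1 over 761 bases and Gm2061 overlaps Slc30a10 over 721 bases on the opposite strand, and Gm37393 overlaps Slc39a10 over 3870 bases on the same strand.

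The other zinc transporters included called genes with larger fold changes than Slc39a10. Of 14 SLC39 genes 12 were tested, 3 were called higher and 2 lower, beside 10.5% and 10.4% of all tested genes, with a median log2 fold change of -0.15. Slc39a8 (ZIP8), which carries manganese and zinc, had 31.2, 30.5 and 28.6 CPM in tumour libraries and 7.96, 9.31 and 8.89 CPM in sham libraries, a 3.45-fold difference (log2 fold change 1.79, SE 0.09, edgeR adjusted p = 0.000274). Slc39a6 (ZIP6), a plasma membrane zinc importer, had 153, 156 and 146 CPM in tumour libraries and 62.5, 63.8 and 84.2 CPM in sham libraries (log2 fold change 1.11, SE 0.12, adjusted p = 0.00292). Both calls held in 14 of 15 alternatives, and failed only with near libraries summed, where edgeR called no gene and 573 had an unadjusted p below 0.05. Slc39a13 (ZIP13), a zinc transporter of the Golgi and vesicles, was higher (0.46, SE 0.11, adjusted p = 0.0359) and Slc39a11 (ZIP11) lower (-0.56, SE 0.13, adjusted p = 0.0246); both calls were lost without any 1 tumour library and without sham 2, and that of Slc39a13 also without sham 1. The importers with the highest CPM among those without a call and not described above were Slc39a7 (ZIP7), of the endoplasmic reticulum, and Slc39a9 (ZIP9). Slc39a7 had 162 ± 4.95 CPM in tumour and 164 ± 19.3 CPM in sham libraries, and Slc39a9 had 50.1 ± 0.966 CPM in tumour and 53.9 ± 5.28 CPM in sham libraries.

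Of 10 SLC30 genes 7 were tested, with a median log2 fold change of -0.12. By edgeR 0 were called in either direction, beside 10.5% higher and 10.4% lower over all tested genes. At an unadjusted p below 0.05, 4 of the 7 passed, beside 36.3% of all tested genes. DESeq2 called 1 higher and 1 lower (12.6% and 12.3% of the genes it tested), and limma-voom 0 higher and 1 lower (11.5% and 10.3%). The 2 with the highest CPM were the vesicle zinc transporter gene Slc30a4 (ZnT4), at 141 ± 2.24 CPM in tumour and 162 ± 8.55 CPM in sham libraries, and Slc30a9 (ZnT9), at 123 ± 2.76 CPM in tumour and 104 ± 7.87 CPM in sham libraries (edgeR adjusted p = 0.0779 and 0.0581). Slc30a8, the zinc transporter gene of insulin granules, had 0 reads in every library.

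**Figure D4:**
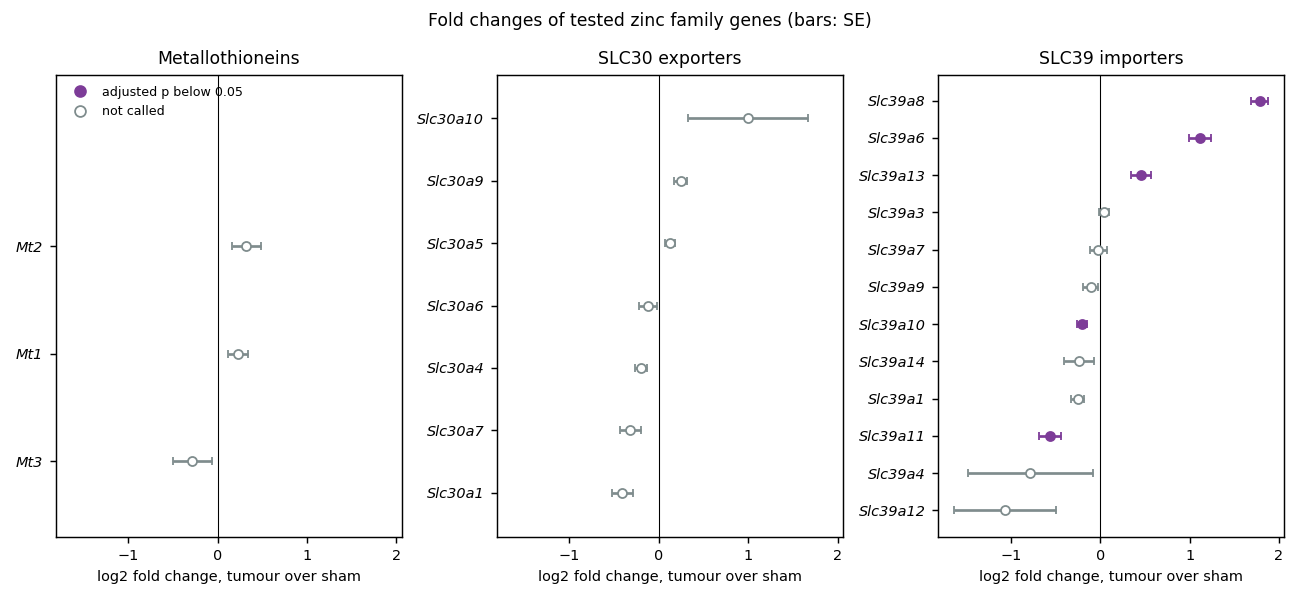
Log2 fold change, tumour over sham, of every tested metallothionein, SLC30 and SLC39 gene; bars are SEs and filled symbols mark an edgeR adjusted p below 0.05. Slc39a8 and Slc39a6 stand farthest to the right among the called genes, and no SLC30 gene is called by edgeR.

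The genes whose levels followed the metallothioneins most closely over the 6 libraries were found by Pearson correlation of log2 CPM among genes with a mean of at least 5 CPM. The libraries fall into few clusters, so many genes reach high values. For Mt1 the 5 closest were Zfp553, Ptpn21, Shisa3, Epha4 and Ano1, with r of 0.996 to 1.000. Ano1, a calcium-activated chloride channel gene, had 17.5 to 20.2 CPM in tumour and 10.6 to 11.6 CPM in sham libraries. For Mt2 they were Uri1, Ccdc85b, Aspg, Stk10 and Vkorc1, with r of 0.995 to 0.998, genes for which sham 3 likewise lay near the tumour libraries. For Mt3 they were Rfx2, Mras, Spata33, Tmem56 and Tmco1, with r of 0.989 to 0.997. For Slc39a10 they were Cars2, Pdzd11, Ptp4a3, Ccdc136 and Pigk, with r of 0.994 to 0.997.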

How the data were processed

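The submitters' processing notes name the mm10 build, Salmon 0.8.2 and DESeq2 1.28.1. Neither kit nor strandedness is stated in the labels. The authors deposited, for each transcript and library, estimated counts (reads), TPM, and length and effective length in bases. TPM values were deposited by the authors as shares corrected for effective length and were summed per gene here to compare levels between genes. Of 113116 transcripts, 112841 had an identifier (version dropped) in GENCODE M21. Reads were added up within each gene, then rounded.

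The test was edgeR 4.0.16 (R 4.3.3): TMM, filterByExpr (minimum count 10, total 15), a robust quasi-likelihood model of group over all 6 libraries, Benjamini-Hochberg over all tested genes, threshold 0.05. SEs were derived from the fold change and its F statistic, so they restate the test. Alternatives were DESeq2 1.42.0, limma-voom (limma 3.58.1), other scalings and filters, transcript length offsets, a replicate block, each library left out and near libraries summed. Tests were tried on simulated data. The genes, lists and rules were chosen with earlier results of these data known. Named are the 10 genes, called genes of the lists, the 2 uncalled ones with the highest CPM per list and the 5 genes most alike (predicted genes left out).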

Additional observations from a re-analysis of the deposited data

How the results depend on the processing

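The signs of the fold changes of the 10 genes were the same in all 149 alternative fits; 122 kept their side of the threshold, 13 lost a call, all of Slc39a10, and 14 gained one. Members called lower numbered 1 in the analysis reported, 2 with upper-quartile factors, DESeq2 or limma-voom, and 0 with RLE size factors, no filter, at least 10 reads in every library (which leaves out Slc30a10), length offsets, the replicate block or near libraries summed. Leaving out 1 library gave 0 to 6 lower, 6 of them without sham 3. Members called higher were 0, but 1 in DESeq2, and 0 to 2 with 1 library left out, 2 of them without sham 3. Over all genes 1506 were called higher and 1492 lower. Length offsets gave 968 lower, leaving out 1 library 536 to 4250 higher and 355 to 4179 lower, and near libraries summed 0 and 0 (573 genes at an unadjusted p below 0.05 in edgeR). The replicate block gave 829 higher and 607 lower, and of the named genes lost the calls of Slc39a10, Slc39a13, Atp2c1 and Gclc; same-numbered libraries did not deviate together (correlations of 0.008, -0.019 and -0.001), so the numbers were not taken as pairs. The tumour minus sham difference in the ratio of Mt2 to Mt1 was 0.0524, and -0.00466 to 0.140 with 1 library left out, turning negative without sham 2; that in the Mt3 share was -4.89 to -2.01 percentage points. Of the other genes, Slc39a7 turned positive with length offsets (0.0001), and with 1 library left out ranged from -0.0844 to 0.079, above 0 without tumour 1 or sham 3; Csrp1 ranged from -0.1417 to 0.0017, above 0 without sham 2. The causes were not tested. Depth limited Slc30a10 alone among the 10, at 1 to 20 reads.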

Other observations

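Genes of copper handling, a metal that metallothioneins also bind, included several called genes. Of 12 tested, 1 was called higher and 3 lower (edgeR, 10.5% and 10.4% of all tested genes), with a median log2 fold change of -0.29. The copper importer gene Slc31a1 (CTR1) had 56.5, 48.5 and 49.2 CPM in tumour libraries and 75.1, 77.2 and 77.4 CPM in sham libraries (-0.57, SE 0.08, edgeR adjusted p = 0.00492). Slc31a2 (CTR2) had 33.6 ± 0.226 CPM in tumour and 46.1 ± 1.42 CPM in sham libraries, and the copper chaperone gene Atox1 had 31.0 ± 0.320 CPM in tumour and 43.8 ± 0.890 CPM in sham libraries (SD, n = 3 each; edgeR adjusted p = 0.00457 and 0.00329). These 3 calls failed only with near libraries summed. Atp7a, the copper pump that Atox1 supplies, had 39.0, 41.4 and 43.9 CPM in tumour libraries and 24.9, 23.6 and 34.8 CPM in sham libraries (0.58, SE 0.16, edgeR adjusted p = 0.0433), a call that was lost without any 1 library other than sham 3 and with length offsets (0.45, adjusted p = 0.237). Sod1, a copper and zinc enzyme gene, and its copper chaperone gene Ccs had the highest CPM among the genes without a call, with log2 fold changes of 0.17 and -0.30.

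Of 7 genes of manganese handling 2 were called higher and 2 lower, beside 10.5% and 10.4% of all tested genes. Beside Slc39a8, the manganese pump gene Atp2c1 was higher, at 97.8 ± 3.39 CPM in tumour and 77.9 ± 4.62 CPM in sham libraries (SD, n = 3 each; edgeR adjusted p = 0.0184, lost without any 1 library other than sham 3, and with length offsets, where it was 0.126). The metal importer gene Slc11a2 (DMT1), at 33.8 ± 1.88 CPM in tumour and 48.1 ± 1.68 CPM in sham libraries, and the Golgi gene Tmem165, at 61.2 ± 1.57 CPM in tumour and 91.5 ± 3.66 CPM in sham libraries, were lower (edgeR adjusted p = 0.00533 and 0.00222). With length offsets the log2 fold change of Slc11a2 was -0.24 in place of -0.51 and was not called.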
